A study of Mus musculus with 10 samples.

Results

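Cyp27a1, the nuclear receptors of the LXR pathway and genes of lipid handling were followed in cultured mouse macrophages derived from bone marrow. The members were 10 genes, found by their symbols among the 57010 gene identifiers of the deposited table: Cyp27a1, Nr1h3, Nr1h2, Abca1, Abcg1, Apoe, Mylip, Pparg, Lpl and Cd36. Cyp27a1 heads the list because it was among the genes higher in cells without WASp in an earlier look at the unconfined libraries, so that its difference there is given as a description with no test. The other 9 are genes of the LXR pathway and of lipid handling.

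RNA was sequenced in 4 groups. Femoral marrow was taken from wild-type animals (WT) or from animals without WASp (WKO), the product of the gene Was, which drives branched actin assembly in blood cells. All cultures grew for 7 days in RPMI with 20 ng/mL macrophage colony-stimulating factor (M-CSF), which every group shared. Unconfined cells gave 2 WT and 2 WKO libraries. Cells squeezed vertically to 3 µm with silicone micropillars for 1 h gave 3 WT and 3 WKO libraries. The labels give no strain, sex or age, do not say whether replicates came from separate animals, and say nothing of handling for the control cells, so that p-values measure a spread between libraries that may be technical and differences after confinement may include handling. Libraries held between 13295701 and 19329908 reads.

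Oxysterols, which are oxidized forms of cholesterol, are the ligands of the liver X receptors LXR alpha and LXR beta. CYP27A1, a mitochondrial enzyme, makes one of them, 27-hydroxycholesterol, and also acts in bile acid synthesis. With their partner RXR, the liver X receptors switch on genes that carry cholesterol out of the cell and limit its uptake, while a rise in sterols shuts off the SREBP2 programme of cholesterol synthesis. In macrophages this pathway is best known for limiting the build-up of lipid in foam cells.

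Promoter sequences from RefSeq (GRCm38.p6) were found for 8 of the 10 members: Cyp27a1, Nr1h3, Nr1h2, Abca1, Apoe, Mylip, Pparg and Cd36. The LXR and RXR pair is known to bind a direct repeat spaced by 4 bases, and the letters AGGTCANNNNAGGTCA were searched on both strands of the 250 bases before each start site, allowing 3 mismatches among the 12 fixed letters. Of 32851 such windows of all genes, 18.5% held a match. Abca1 was the only one of the 8 members with a match in any of its windows. The match lies on the reverse strand, from base -67 to base -52 before the start site, and is a description of letters, not evidence of binding. Abca1 is a textbook target of LXR through a repeat of this kind. The windows of Abca1 (chr4:53159896-53160145, minus strand), Cyp27a1 (chr1:74713285-74713534, plus strand) and Apoe (chr7:19699189-19699438, minus strand; for Apoe, the most upstream of 3 start sites) are shown because Cyp27a1 and Apoe were the members that differed between genotypes and Abca1 carries the match. They are written 5′ to 3′ on the strand of the gene, with the match in capitals.
Abca1: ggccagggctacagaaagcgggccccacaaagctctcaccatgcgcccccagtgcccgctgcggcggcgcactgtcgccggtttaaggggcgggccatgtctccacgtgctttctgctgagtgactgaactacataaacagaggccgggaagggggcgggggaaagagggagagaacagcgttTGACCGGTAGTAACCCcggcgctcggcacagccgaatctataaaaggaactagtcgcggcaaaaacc
Cyp27a1: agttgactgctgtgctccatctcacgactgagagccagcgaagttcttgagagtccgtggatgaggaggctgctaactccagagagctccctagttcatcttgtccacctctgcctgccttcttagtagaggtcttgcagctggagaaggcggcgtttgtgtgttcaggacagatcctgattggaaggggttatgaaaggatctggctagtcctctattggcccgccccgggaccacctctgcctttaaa
Apoe: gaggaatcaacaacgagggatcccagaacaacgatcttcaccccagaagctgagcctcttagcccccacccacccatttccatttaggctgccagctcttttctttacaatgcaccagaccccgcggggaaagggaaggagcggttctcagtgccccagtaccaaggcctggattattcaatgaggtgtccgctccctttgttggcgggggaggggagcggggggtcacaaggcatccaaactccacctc
The windows printed for Cyp27a1 and Apoe came no closer to the repeat than 4 and 5 mismatches, and the other 2 windows of Apoe no closer than 4, which says only that these letters are not in these windows.

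Libraries were compared first for their cells. Was lay between 96.9 and 153.9 normalized read counts in the WKO libraries and between 1308 and 1649 in the WT libraries. A normalized read count is the number of reads of a gene divided by 1 size factor per library. Macrophage markers (10 genes, among them Adgre1, Csf1r and Lyz2) summed to between 195549 and 228775 in WT libraries and between 265760 and 335962 in WKO libraries. Lyz2 alone, with 100507 to 200203 counts, made up much of these sums, and 9 of the 10 had higher means in WKO. Markers of other cells also moved with genotype. The sum of 12 stromal markers, with none at 0 throughout, was between 881.6 and 1878 in unconfined WT, 2381 and 2752 in unconfined WKO, 194.7 and 770.4 in confined WT, and 881.2 and 10623 in confined WKO libraries. WKO confined replicate 5 stood apart, with the highest value of 11 of the 12. The sum of 8 neutrophil and progenitor markers, none at 0 throughout, was between 6847 and 10700.4 in unconfined WT, 24632 and 29625 in unconfined WKO, 2533 and 7903 in confined WT, and 6952 and 27786 in confined WKO libraries, with replicate 5 the lowest of the WKO libraries. All 12 stromal and all 8 neutrophil markers had higher means in WKO, as did 3 of the 6 B cell markers. B cell markers (6 genes), mostly the heavy chain Ighm, with 388.02 to 5093 counts, summed to between 409.7 and 874.3 in WT and between 1572 and 5199 in WKO libraries. Osteoclast markers (7 genes, of which 1 had a higher mean in WKO) summed to between 13078 and 17114. Dendritic cell markers (4 genes) summed to at most 53.9 and T cell markers (4 genes) to at most 7.4. Of 7 adipocyte markers, Lep, Cidec, Adig and Cfd were at 0 in all libraries and Adipoq reached 5.99. In bulk RNA, fewer cells of a type and less RNA per cell cannot be told apart.

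Cyp27a1 (ENSMUSG00000026170), the sterol 27-hydroxylase, was about 2-fold higher in WKO cells. In unconfined WT libraries it had 510.1 and 549.9 normalized read counts, and in unconfined WKO libraries 1073 and 1202. In confined WT libraries it had 428.5, 411.8 and 373.6, and in confined WKO libraries 814.4, 690.6 and 1015. Every WKO library lay above every WT library, as in 3.38% of all tested genes, and the groups ran from confined WT through unconfined WT and confined WKO to unconfined WKO without overlap between neighbours. The WKO mean was 2.15 times the WT mean in unconfined cells, the difference for which the gene was picked. In confined cells the mean was 840.0 ± 163.6 in WKO and 404.6 ± 28.2 in WT (SD, n = 3 each), a ratio of 2.08. On the log2 scale the difference was 1.04 (95% interval 0.72 to 1.35, SE 0.15, limma adjusted p 0.00551 over all 12455 genes tested). Over the alternatives run, its adjusted p in confined cells ranged from 5.93e-08 to 0.0364. The difference in confined cells was also known from earlier results of these data and is not independent evidence.

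**Figure D1:**
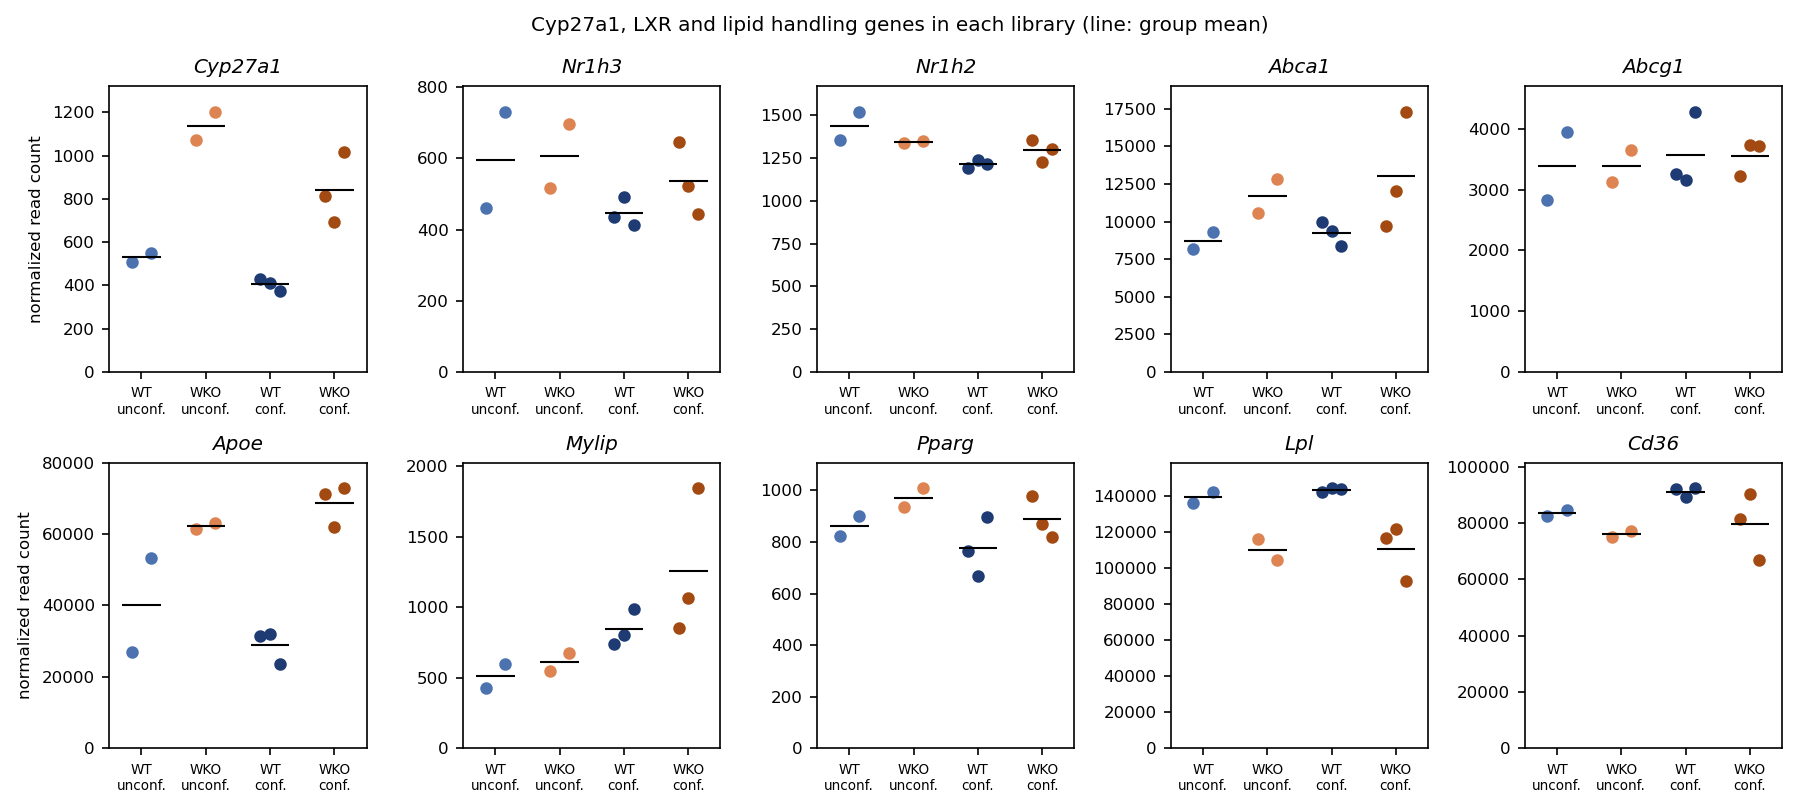
Normalized read count (vertical axes, from 0) of the 10 genes in each library of the 4 groups; points are libraries and lines are group means. Cyp27a1 and Apoe lie higher in all 5 WKO libraries than in all 5 WT libraries, Lpl lies lower, and Mylip is higher in the 6 confined libraries than in the 4 unconfined ones. Of all tested genes, 3.38% separated like Cyp27a1 and Apoe, 3.33% like Lpl and 4.46% like Mylip.

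The difference in Cyp27a1 was set beside the marker sums. WKO confined replicate 2, with 690.6 counts of Cyp27a1, had a stromal sum of 881.2, above the 232.5, 194.7 and 770.4 of the confined WT libraries and below the 881.6 and 1878 of the unconfined ones. Its neutrophil sum, 27786, was the highest of the confined WKO libraries. WKO confined replicate 5, with 1015 counts of Cyp27a1, had a neutrophil sum of 6952, between the 6269 and 7903 of confined WT replicates 2 and 3. Its stromal sum, 10623, was the highest of all libraries. Without replicate 5 the log2 fold change in confined cells was 0.89 (limma adjusted p 0.00339). The B cell sum was 3525 in WKO confined replicate 2 and 1572 in replicate 5, against 409.7 to 874.3 in WT libraries. The macrophage marker sum also moved with genotype, and the part of any of these cells in the difference was not tested.

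**Figure D2:**
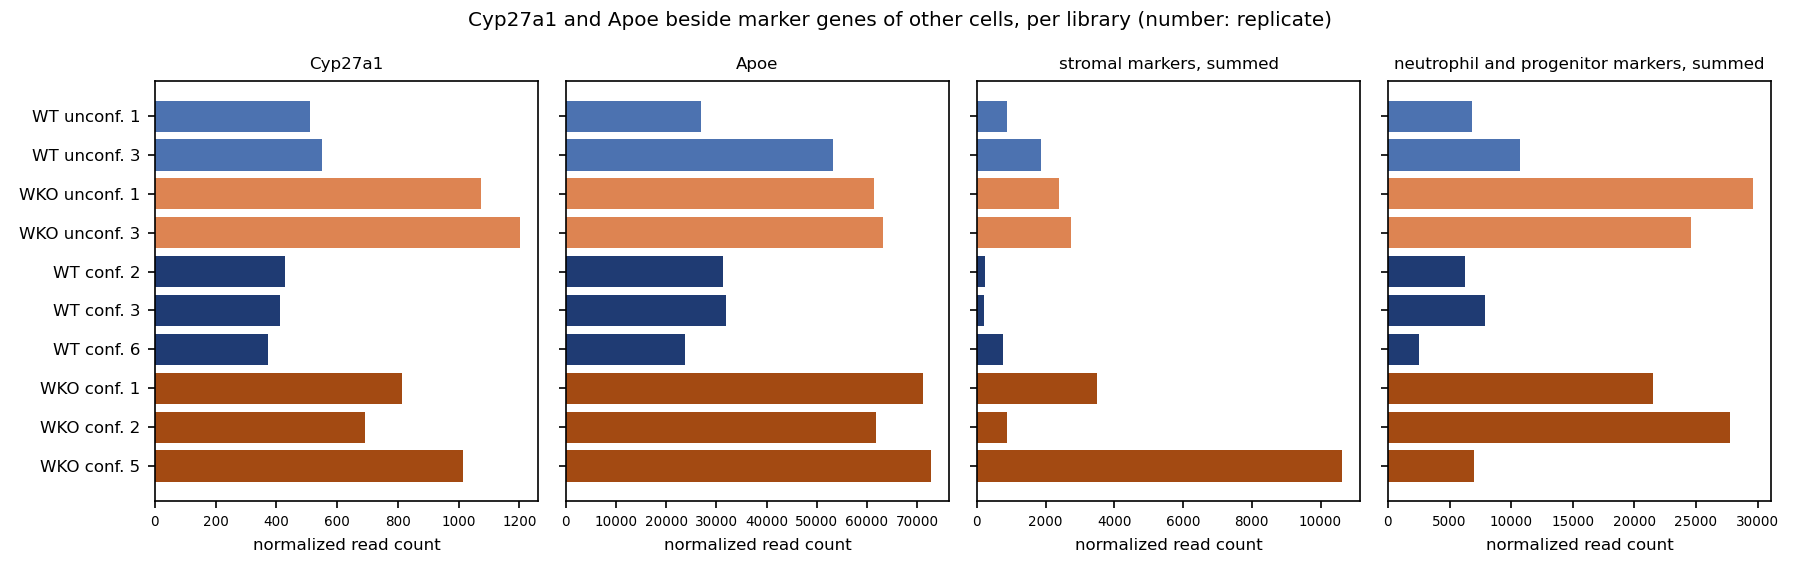
Normalized read counts per library (horizontal axes, from 0) of Cyp27a1, of Apoe, and of stromal and neutrophil markers summed, one bar per library, coloured by group. Cyp27a1 and Apoe are higher in all 5 WKO libraries than in the WT libraries, as in 3.38% of all tested genes. The stromal sum runs from 881.2 to 10623 and the neutrophil sum from 6952 to 27786 in the 3 confined WKO libraries.

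Cyp27a1 was lower after confinement in each genotype, but did not pass the test. The confined mean was 0.763 of the unconfined mean in WT and 0.738 in WKO, with no overlap between libraries in either genotype. Of all tested genes, 5.67% were lower without overlap in both genotypes in this way. The log2 fold changes were -0.39 in WT (95% interval -0.74 to -0.04, limma adjusted p 0.357) and -0.45 in WKO (-0.81 to -0.10, adjusted p 0.23). The unconfined WKO libraries had been singled out as high for this gene, which bears on the second of these values. Averaged over the genotypes, in a contrast added after these values were seen, it was -0.42 (limma adjusted p 0.0513), and it passed in 6 of the alternatives. With array weights the value in WKO was -0.66 (limma adjusted p 0.00403). That fit gives each library its own weight. It gave 3.74 to WKO confined replicate 2, the lowest of its group for Cyp27a1, and 0.283 and 0.321 to replicates 1 and 5, so that the value leans on 1 library.

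Genes with a profile like that of Cyp27a1 were ranked by Pearson correlation of log2 values over the 10 libraries among 10216 genes with a mean of at least 50. The 5 highest were Gm16536 (r = 0.982), Hfe (0.971), Ms4a6b (0.967), Grk3 (0.962) and Wfdc17 (0.958), and the 3 lowest were Piezo1 (-0.973), Ncdn (-0.971) and Nkain1 (-0.970). These points share genotype and condition, so that any gene that separates the 4 groups in the same order ranks high. Hfe, which encodes a regulator of iron uptake, had means of 913.5 in unconfined WT, 1487 in unconfined WKO, 790.5 in confined WT and 1279 in confined WKO libraries. Piezo1, a mechanically gated ion channel, ran the other way, with means of 7991, 5243, 9502 and 6266 in the same order.

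Neither receptor passed a test. Nr1h3 (ENSMUSG00000002108), which encodes LXR alpha, had 461.7 and 730.3 counts in unconfined WT, 517.0 and 695.8 in unconfined WKO, 435.0, 491.5 and 412.1 in confined WT, and 647.3, 521.1 and 443.3 in confined WKO libraries. The groups overlapped in every comparison, and in confined cells the log2 fold change of WKO against WT was 0.25 (95% interval -0.18 to 0.69, limma adjusted p 0.577). Its exons overlap those of Gm13783, and since the use of strand is not stated, its count is uncertain. Nr1h2 (ENSMUSG00000060601), which encodes LXR beta, had 1357 and 1519 counts in unconfined WT, 1338 and 1351 in unconfined WKO, 1194, 1240.0 and 1213 in confined WT, and 1357, 1226 and 1301 in confined WKO libraries. Genotypes overlapped in confined cells, where the difference was 0.09 on the log2 scale (95% interval -0.12 to 0.30, limma adjusted p 0.705). After confinement Nr1h2 was lower in WT without overlap, as were 17.7% of all tested genes (log2 fold change -0.24, limma adjusted p 0.398) and overlapped in WKO (-0.06, adjusted p 0.857). For Nr1h3 the corresponding values were -0.38 and -0.18 (limma adjusted p 0.534 and 0.764).

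Among the targets, Apoe was higher in WKO cells. Apoe (ENSMUSG00000002985) encodes apolipoprotein E, which accepts cholesterol leaving the cell. It had 26836 and 53140.3 counts in unconfined WT, 61350.0 and 63162 in unconfined WKO, 31324, 31864 and 23678 in confined WT, and 71229, 61847 and 72734 in confined WKO libraries. All 5 WKO libraries lay above all 5 WT libraries, as in 3.38% of all tested genes, and the 2 unconfined WT libraries lay far apart. In confined cells the mean was 68604 ± 5899 in WKO and 28955 ± 4578 in WT (SD, n = 3 each), a ratio of 2.37, or 1.25 on the log2 scale (95% interval 0.80 to 1.71, SE 0.21, limma adjusted p 0.0119). The call was lost without WT confined replicate 2 (1.32, limma adjusted p 0.0514) and without the mean-variance trend (1.25, adjusted p 0.0706). Without WKO confined replicate 5, the library with the highest stromal sum, the value was 1.21 (limma adjusted p 0.0111). The macrophage, stromal, neutrophil and B cell sums given above moved with genotype here too, and their part in the difference of Apoe was not tested. The unconfined ratio was 1.56. In the test of the difference between the conditions, Apoe had an interaction of 0.53 (95% interval -0.19 to 1.25, limma adjusted p 0.999).

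The cholesterol exporters Abca1 and Abcg1 did not pass the test between genotypes. Abca1 (ENSMUSG00000015243), which loads cholesterol onto apolipoprotein A-I, had 8179 and 9296 counts in unconfined WT, 10596 and 12822 in unconfined WKO, 9947, 9393 and 8365 in confined WT, and 9729, 12050.1 and 17297 in confined WKO libraries. WKO was above WT without overlap in unconfined cells, as in 22.2% of all tested genes, while confined replicate 1 of WKO lay inside the WT range. The log2 fold change in confined cells was 0.46 (95% interval 0.07 to 0.84, limma adjusted p 0.212). It depended on single libraries, at 0.23 without WKO confined replicate 5 (limma adjusted p 0.411) and 0.65 without replicate 1 (adjusted p 0.0371). Abcg1 (ENSMUSG00000024030), which exports cholesterol to high-density lipoprotein, had 2825 and 3952 counts in unconfined WT, 3129 and 3652 in unconfined WKO, 3255, 3167 and 4283 in confined WT, and 3220 to 3743 in confined WKO libraries. WKO and WT overlapped in both conditions, with mean ratios of 1.00 and 0.999 and a difference of 0.01 on the log2 scale in confined cells (95% interval -0.32 to 0.34, limma adjusted p 0.986).

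Mylip (ENSMUSG00000038175), a ubiquitin ligase that degrades the LDL receptor, was higher after confinement in both genotypes. It had 427.5 and 600.8 counts in unconfined WT, 550.5 and 678.2 in unconfined WKO, 741.3, 805.9 and 984.1 in confined WT, and 853.6, 1063 and 1840.4 in confined WKO libraries. All 6 confined libraries lay above all 4 unconfined ones, which held for 4.46% of all tested genes in this direction. Within a genotype the change did not pass, with log2 fold changes of 0.72 in WT (95% interval 0.12 to 1.32, limma adjusted p 0.301) and 0.96 in WKO (0.36 to 1.56, adjusted p 0.13). A contrast averaged over the genotypes, added after these values had been seen, gave 0.84 (95% interval 0.42 to 1.26, SE 0.19, limma adjusted p 0.0267). By that contrast 6.21% of all genes passed, 515 higher and 258 lower, or 392 and 446 with upper-quartile scaling, which shifted the median over all genes from -0.016 to -0.104 (log2). The call for Mylip was lost when WT unconfined replicate 1 (limma adjusted p 0.12), WKO unconfined replicate 1 (0.126) or 3 (0.067), or WT confined replicate 3 (0.0579) or 6 (0.0697) was left out. WKO confined replicate 5 was the highest library, and without it the value was 0.68 (limma adjusted p 0.00783). Between the genotypes in confined cells, the value for Mylip was 0.50 (limma adjusted p 0.335), and 0.19 without that library (adjusted p 0.688).

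Pparg (ENSMUSG00000000440), the nuclear receptor PPAR gamma, which promotes fatty acid uptake and storage, had 823.6 and 901.1 counts in unconfined WT, 935.3 and 1008 in unconfined WKO, 763.8, 668.7 and 898.2 in confined WT, and 977.6, 869.6 and 819.6 in confined WKO libraries. Genotypes overlapped in confined cells, where the log2 fold change was 0.20 (95% interval -0.08 to 0.48, limma adjusted p 0.483).

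Lpl and Cd36, which bring fatty acids into the cell, were lower on average in WKO cells. Lpl (ENSMUSG00000015568) encodes lipoprotein lipase, which frees fatty acids from lipoproteins, and had 136210.2 and 142009 counts in unconfined WT, 116031 and 104228 in unconfined WKO, 142345, 144057 and 143544 in confined WT, and 116478, 121569 and 92973 in confined WKO libraries. All 5 WKO libraries lay below all 5 WT libraries, as in 3.33% of all tested genes. In confined cells the ratio of means was 0.770 and the log2 fold change -0.39 (95% interval -0.66 to -0.12, SE 0.12), which missed the threshold with limma (adjusted p 0.131) and passed with DESeq2 (-0.37, adjusted p 0.0329). Cd36 (ENSMUSG00000002944), a scavenger receptor for fatty acids and oxidized lipoprotein, had 82419 and 84576 counts in unconfined WT, 75040 and 77342 in unconfined WKO, 92026, 89200 and 92273 in confined WT, and 81470.1, 90328 and 66727 in confined WKO libraries. Replicate 2 of confined WKO lay inside the WT range, and the log2 fold change was -0.21 (95% interval -0.47 to 0.06, limma adjusted p 0.428). Without WKO confined replicate 5, the lowest library for both genes, the values were -0.27 for Lpl and -0.09 for Cd36 (limma adjusted p 0.237 and 0.75).

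All 10 members passed the filter on low values. Per kilobase of exon, Apoe (23363 normalized read counts, mean of the 4 groups), Cd36 (23006) and Lpl (11999) were the most abundant, and Nr1h3 (217.3), Mylip (249.4) and Pparg (296.3) the least; Cyp27a1 stood at 335.0. Between genotypes in confined cells 2 of the 10 members passed the limma threshold, both higher, against 2.59% of the 12455 genes tested (1.38% higher). They were Apoe and Cyp27a1, whose difference in confined cells was known before, so that this count is not independent of how the list was made. The median log2 fold change was 0.23 over the members, Cyp27a1 included, and 0.004 over all genes. In unconfined cells, where 0.145% of all genes passed, no test of the members is given because Cyp27a1 was chosen there. After confinement 0 of 10 passed limma in WT, against 1.16% of all genes, and 0 of 10 in WKO, against 1.72%. At an unadjusted p under 0.05 there were 3 and 2 members, against 1523 and 1758 of the 12455 genes. edgeR called 0 in both genotypes, against 0.931% of all genes in WT and 1.49% in WKO. DESeq2 called 0 in WT and 1 in WKO, against 2.67% and 3.9%. The interaction, or change after confinement in WKO less the change in WT, passed limma for 0 of 10 members and 0% of all genes. At an unadjusted p under 0.05 there were 0 of 10, against 258 of the 12455 genes, and edgeR and DESeq2 called 0. Its values ran from -0.08 for Cd36 to 0.53 for Apoe. The contrasts share groups, so that their values are given side by side and not correlated.

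**Figure D3:**
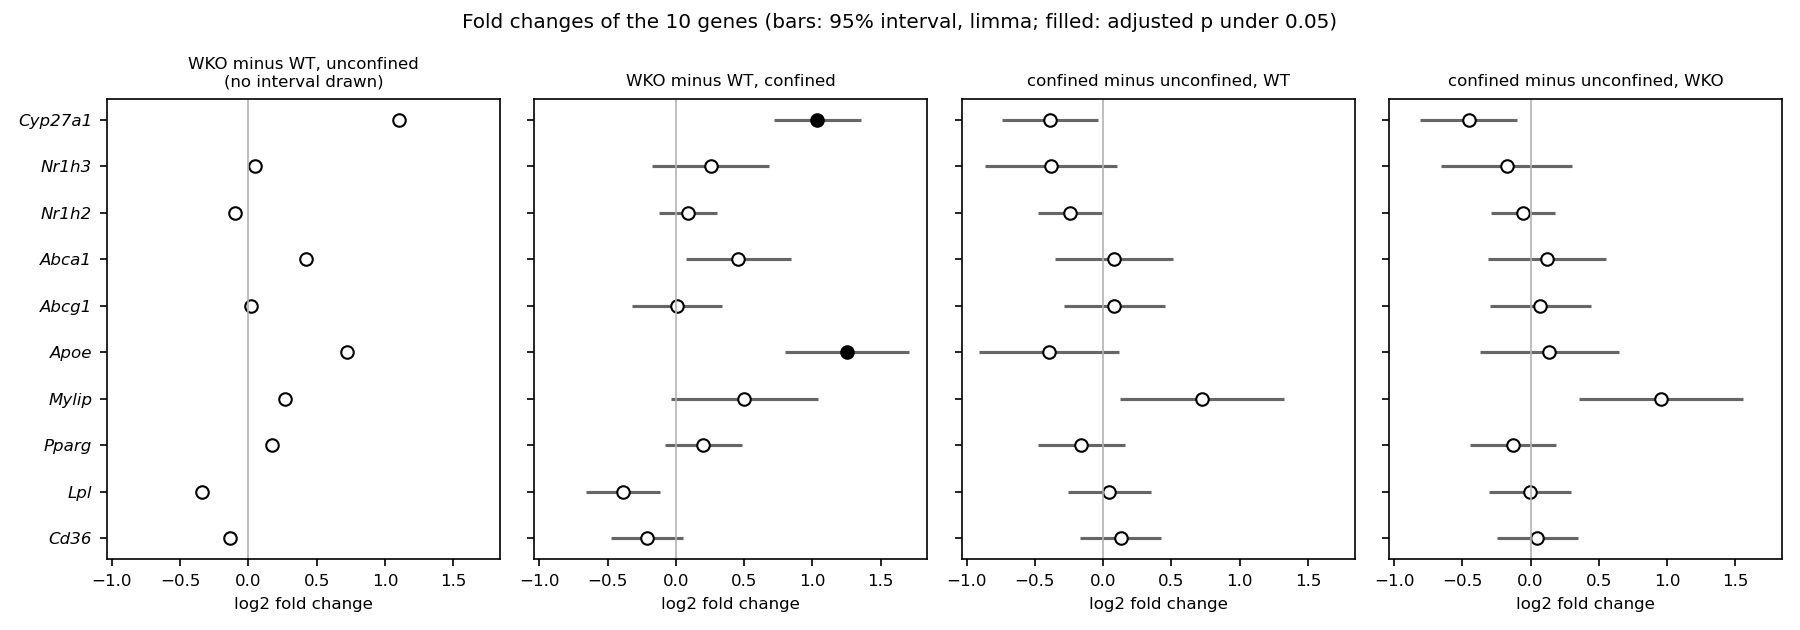
Log2 fold changes (horizontal axis) of the 10 genes in 4 comparisons; points are limma estimates, bars their 95% intervals, and filled points have an adjusted p under 0.05. Cyp27a1 and Apoe pass between genotypes in confined cells, and Mylip has the highest values after confinement, at 0.72 in WT and 0.96 in WKO; all points of the unconfined genotype comparison are drawn open and without intervals, because Cyp27a1 was chosen on it.

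Genes around the members were taken from 5 lists. Of the cholesterol synthesis enzymes and other SREBP2 targets, some passed as lower in confined WKO cells. Of 27 listed genes 26 were tested, and 7 passed as lower and 0 as higher between genotypes in confined cells, where 1.2% of all genes passed as lower. The log2 fold change was below 0 for 24 of the 26 in confined cells (median -0.41) and for 25 of 26 in unconfined cells (median -0.49). The medians of all genes were 0.004 and 0.002. In unconfined cells 0 of the 26 passed limma, against 0.145% of all genes. At an unadjusted p under 0.05 there were 13 of the 26, against 1196 of 12455 genes. Sqle (ENSMUSG00000022351), squalene epoxidase, had 2301, 2143 and 2294 counts in confined WT and 1449, 1217 and 1330.0 in confined WKO libraries (log2 fold change -0.76, limma adjusted p 0.0107, and 0.0531 without WT confined replicate 2). Fdps (-0.90) and Cyp51 (-0.61), enzymes of the same path, also passed; both overlap exons of other genes, which leaves their counts uncertain. The number of passing genes in the list was 1, 3 and 3 without WT confined replicate 2, 3 and 6, and 0 without the mean-variance trend. Macrophage, stromal, neutrophil and B cell marker sums moved with genotype as given above, and their part in these differences was not tested. After confinement the list as a whole did not move in 1 direction. Values were below 0 for 13 of the 26 in WT (median log2 fold change -0.001) and 14 in WKO (-0.016). Insig1, which holds SREBP in the endoplasmic reticulum, was the only gene of the list to pass. It rose in WT (log2 fold change 0.63, limma adjusted p 0.014) and in WKO (0.91, adjusted p 0.0012). Of all genes, 0.891% passed as higher in WT and 1.49% in WKO. In WT the call was lost without WT unconfined replicate 1 (limma adjusted p 0.0861) or 3 (0.141), or WT confined replicate 3 (0.078) or 6 (0.0698).

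Other LXR targets and partners went both ways. Of 22 listed genes 18 were tested, and 3 passed as higher and 2 as lower between genotypes in confined cells. Of all genes, 1.38% passed as higher and 1.2% as lower. The median log2 fold change was 0.13 over the list and 0.004 over all genes. Mertk, a receptor for the uptake of dying cells, had 1896, 1744 and 1438 counts in confined WT and 3386, 3333 and 3948 in confined WKO libraries (log2 fold change 1.08, limma adjusted p 0.00175). Rxra, the partner of LXR, had 1493, 1505 and 1452 counts in confined WT and 2093, 2047 and 2243 in confined WKO libraries (log2 fold change 0.52, limma adjusted p 0.017), and Abca9, a lipid transporter of the same family as Abca1, rose by 0.75 (adjusted p 0.0442). Scd2 and Fasn, enzymes of fatty acid desaturation and synthesis, passed as lower, with log2 fold changes of -1.14 and -0.56 (limma adjusted p 0.00551 and 0.0176); the count of Scd2 is uncertain, since a microRNA gene overlaps its exons. Without WT confined replicate 2, 3 or 6, Rxra, Fasn and Abca9 lost the call (limma adjusted p between 0.0552 and 0.17), and Abca9 also without either unconfined WKO library or WKO confined replicate 2 (between 0.067 and 0.123). The part of the marker sums, which moved with genotype, in the differences of this list was not tested. After confinement 0 of the 18 passed limma in either genotype, against 1.16% of all genes in WT and 1.72% in WKO. At an unadjusted p under 0.05 there were 1 in WT and 3 in WKO, against 1523 and 1758 of 12455 genes.

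Of the PPAR targets and genes of fatty acid handling, 20 of 23 were tested. Of these, 1 passed as higher and 1 as lower between genotypes in confined cells, against 1.38% and 1.2% of all genes. Between genotypes in confined cells Fabp4, a fatty acid binding protein, had 2137 ± 236.4 counts in WT and 3133 ± 340.3 in WKO (SD, n = 3 each), a rise of 0.55 in log2 units with a limma adjusted p of 0.032, while Slc27a1, a fatty acid transporter, was lower, at -0.67 (limma adjusted p 0.00729). The call for Fabp4 was lost without either unconfined WKO library, any of the 3 confined WT libraries or WKO confined replicate 2 (limma adjusted p between 0.0566 and 0.126). Here too the part of the marker sums in the differences between genotypes was not tested. After confinement 0.891% of all genes passed as higher in WT and 1.49% in WKO. Hilpda, a lipid droplet protein that inhibits lipid breakdown, was the only gene of this list to pass after confinement. It went from 355.3 and 350.3 to 1455, 1621 and 958.4 counts in WT (log2 fold change 1.89, limma adjusted p 0.00286) and from 252.6 and 390.2 to 1381, 1005 and 1059 in WKO (1.85, adjusted p 0.00266). The call was lost in WT without WT unconfined replicate 1 (limma adjusted p 0.0547) and in WKO without WKO unconfined replicate 1 (0.055).

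Among 17 scavenger and lipoprotein receptors and genes of lysosomal cholesterol, 0 passed limma between genotypes in confined cells, against 2.59% of all genes. At an unadjusted p under 0.05 there were 3, against 2087 of 12455 genes. Olr1, a receptor for oxidized lipoprotein, passed after confinement in WKO, where 1.49% of all genes passed as higher. In WKO it went from 14.8 and 24.8 to 134.2, 143.2 and 735.7 counts (log2 fold change 3.59, limma adjusted p 0.0328). In WT it went from 15.2 and 84.45 to 184.3, 192.4 and 264.3 (2.51, adjusted p 0.165). The call in WKO was lost when either unconfined WKO or any confined WT library was left out (limma adjusted p between 0.0516 and 0.311).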

How the data were processed

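RNA of 10 libraries was analysed in 4 groups taken from the titles. In the deposited table, each gene and library has a signal, the normalized read count. Per the submitters' processing notes, FastQC, Trim Galore and STAR were used with GRCm38 (mm10); versions, counting tool, annotation and strand are not given in the sources used here. All deposited signal values above 0 (100%) were whole multiples, within 1e-06, of 1 unit per library, which gave back whole reads; how the authors estimated the factors is not given, and differences in composition may remain. A floor of 3 reads equals 2.35 to 3.59 counts and covers counting error only.

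Genes with a mean of at least 10 (12455) were fitted as log2(normalized read count + 1), which understates changes of low genes, with limma 3.58.1 in R 4.3.3: 1 mean per group over all 10 libraries, mean-variance trend, and Benjamini-Hochberg adjustment over all tested genes at a threshold of 0.05. The fit was also run on simulated counts without an outlying library, and no result here rests on that run. On recovered reads, edgeR 4.0.16 called 319 genes between genotypes in confined cells, against 322 with limma; DESeq2 1.42.0 was also run. Members, lists and tests were chosen with earlier results of these data known, and the contrast averaged over genotypes was added after values had been seen. Named list genes are up to 5 per list that passed limma in any contrast, by smallest p; genes with profiles like Cyp27a1 are the 5 highest and 3 lowest correlations. Exon overlap and length came from GENCODE M21, and no similar gene covered 20% or more of a named member or list gene at 95% identity. One result of a list gene is not reported here.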

Additional observations from a re-analysis of the deposited data

How the results depend on the processing

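Each of the 36 fold changes of single genes was recomputed under up to 21 alternatives, 754 values in all, of which 657 kept direction and side of the threshold, 72 lost the call, 15 gained it and 10 changed sign. The sign changed only for genes that did not pass: Abcg1 between genotypes in confined cells (TMM scaling -0.00224, edgeR -0.0132, DESeq2 -0.000321; -0.0511 and -0.0707 without WT confined replicates 2 and 3, -0.0288 and -0.0259 without WKO confined replicates 2 and 5, in a range of -0.0707 to 0.147), and, after confinement in WKO, Nr1h2 (0.0030 with the replicate block) and Nr1h3 (0.18 with the replicate block, and -0.39 to 0.038 leaving out 1 library, the last without WKO unconfined replicate 3). The log2 fold change of Cyp27a1 in unconfined cells ran from 1.02 to 1.18, and that of Was in confined cells from -4.03 to -3.85, when 1 library was left out. Cause was not tested for any of these changes.

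Members passing between genotypes in confined cells were 2, and 4 with array weights, 1 without trend, and 1 to 3 leaving out 1 library. Array weights were 3.74 for WKO confined replicate 2 and 0.283 and 0.321 for replicates 1 and 5. All counts with array weights therefore lean on 1 confined WKO library. After confinement 0 passed, with 0 to 1 leaving out 1 library in either genotype, and in WKO 1 with DESeq2 and 2 with array weights. Averaged over genotypes 1 passed, 2 with TMM or upper-quartile scaling, DESeq2 or array weights, 0 without filter or without trend, and 0 to 2 leaving out 1 library; this contrast was not run on only the groups compared. Passing counts of the lists between genotypes in confined cells were, for cholesterol genes, 7, and 2 with only the groups compared, 18 with array weights, 0 without trend, 4 with the replicate block and 1 to 10 leaving out 1 library. For LXR targets they were 5, and 2, 9, 1, 3 and 2 to 6 in the same order. For PPAR targets they were 2, and 1, 8, 0, 4 and 1 to 4 in that order, with 1 without filter and 5 with DESeq2. For oxysterol enzymes 0 became 1 with DESeq2, array weights or the replicate block, and 0 leaving out any library. For scavenger receptors 0 became 1 with DESeq2 and 2 with array weights, and 0 to 1 leaving out 1 library. Over all genes 322 passed, against 186 without filter, 775 with DESeq2, 90 with only the groups compared and 1948 with array weights. There were 53 without trend, 58 without WT confined replicate 2 and 701 without WKO confined replicate 1. The share of all genes set beside the members was 2.59% in the main fit. It was 0.426% without trend, 0.723% with only the groups compared, 6.22% with DESeq2 and 15.6% with array weights. Leaving out WT confined replicate 2 gave 0.466%, and leaving out WKO confined replicate 1 gave 5.63%. Same-numbered libraries of different groups deviated from their group means with correlations between -0.11 and 0.08, so the numbers were not taken as pairs; the replicate block changed no call of a member.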

Other observations

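Of 10 other enzymes that make, use or serve the making of oxysterols and bile acids, 6 had too few reads to be tested. Ch25h, cholesterol 25-hydroxylase, had a mean of 1.99 normalized read counts over the 10 libraries, Cyp7b1, which degrades oxysterols, 0.31, Cyp46a1 1.32, Cyp11a1 2.6, Hsd3b7 7.46 and Sult2b1 4.16. The first 3 are below the detection floor, which lies between 2.35 and 3.59, and none of the 6 was tested. The other 4, Cyp39a1, Fdxr, Fdx1 and Amacr, were tested between genotypes in confined cells, with log2 fold changes from -0.50 to 2.80. Of these, 0 passed limma, against 2.59% of all genes, and 1 had an unadjusted p under 0.05, against 2087 of 12455 genes. With edgeR 0 passed, against 2.56% of all genes, and with DESeq2 1, against 6.22%. The exporters Abcg5 and Abcg8 had 0 reads in every library.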
